A study of Mus musculus with 2 samples.

Results

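The Car3 Dkk2 Tnc cells are a population of bladder stromal cells in which transcripts of Car3, Dkk2, Tnc, Bmp5 and Notum occurred together. A barcode was counted as stromal when Col1a1, Col1a2, Col3a1 and Dcn gave at least 20 of every 10000 UMIs (unique transcript molecules) and Pecam1, Cdh5 and Epcam together gave under 2 UMIs, and it was a member when at least 3 of the 5 genes were detected. The rule found 1403 cells, 1367 in the Tom- and 36 in the Tom+ library, among 7283 stromal cells and 11660 cells that passed the filters. The cells were selected on the measured UMIs of these 5 genes, so their levels are given below as a description, and Rbp4 and Cdkn2a were named beside them with earlier results of these data known.

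Per the labels, both libraries came from the bladder of 1 male mouse aged 25 months with the genotype p16-CreERT2/R26-LSL-tdTomato. In this animal a Cre recombinase made from the p16 (Cdkn2a) locus becomes active when tamoxifen is present and switches on the red protein tdTomato at the Rosa26 locus, and the mark then stays in the cell and its descendants. Tamoxifen was injected into the abdominal cavity on 5 days in a row, and the bladder was taken 2 weeks later. Cells free of the leukocyte antigen CD45 and of the dead-cell dye DAPI were sorted by tdTomato fluorescence into the Tom- and the Tom+ library. Both were made with a kit that reads transcripts near their 3' end, and both groups share genotype, animal, age, tamoxifen and the loss of leukocytes. With 1 library per group there is no replicate check and no test. All 95% intervals cover counting error only, and cells of 1 library are not replicates of a condition.

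Stromal cells under the urothelium, the epithelial lining of the bladder, receive Hedgehog protein from that lining and answer with transcripts such as Ptch1, Gli1 and Hhip, and they in turn make Wnt and BMP proteins that act on it. Dkk2 and Notum are secreted modulators of Wnt signalling: Dkk2 binds Wnt co-receptors, and Notum removes the lipid that Wnt proteins need. Cdkn2a encodes 2 inhibitors of the cell cycle, p16Ink4a and p19Arf, whose transcripts start at separate promoters and share their later exons, so UMIs read near the 3' end cannot tell them apart.

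The promoters of Cdkn2a and Rbp4 are shown because the level of the first gene followed that of the second within the population. Each stretch runs 5′ to 3′ on the gene's strand from 250 bases before to 50 bases after a RefSeq start site in GRCm38.p6, and capitals mark the letters TCAAAG, which read CTTTGA on the other strand and are the core letters bound by the TCF/LEF factors of the Wnt pathway.
Cdkn2a promoter 1, chr4:89294570-89294869, minus strand: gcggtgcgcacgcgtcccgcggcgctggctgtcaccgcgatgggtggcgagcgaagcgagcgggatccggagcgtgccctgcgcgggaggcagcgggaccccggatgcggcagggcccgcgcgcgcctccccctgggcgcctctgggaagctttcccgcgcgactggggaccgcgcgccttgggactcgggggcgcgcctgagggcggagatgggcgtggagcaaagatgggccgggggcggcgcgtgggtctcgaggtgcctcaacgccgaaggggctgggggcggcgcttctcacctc
Cdkn2a promoter 2, chr4:89282143-89282442, minus strand: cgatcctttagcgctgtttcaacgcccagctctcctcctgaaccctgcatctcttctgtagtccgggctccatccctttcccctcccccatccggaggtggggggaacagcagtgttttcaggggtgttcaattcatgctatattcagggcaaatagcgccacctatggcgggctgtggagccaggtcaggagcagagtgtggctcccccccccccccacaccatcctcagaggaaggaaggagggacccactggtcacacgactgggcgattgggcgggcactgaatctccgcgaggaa
Rbp4 promoter 1, chr19:38125272-38125571, minus strand: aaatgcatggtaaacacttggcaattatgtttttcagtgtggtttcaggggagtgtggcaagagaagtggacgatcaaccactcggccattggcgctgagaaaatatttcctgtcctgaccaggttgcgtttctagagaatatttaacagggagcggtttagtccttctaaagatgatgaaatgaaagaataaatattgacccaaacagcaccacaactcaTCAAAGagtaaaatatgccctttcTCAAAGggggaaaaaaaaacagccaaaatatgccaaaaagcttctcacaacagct
Rbp4 promoter 2, chr19:38124762-38125061, minus strand: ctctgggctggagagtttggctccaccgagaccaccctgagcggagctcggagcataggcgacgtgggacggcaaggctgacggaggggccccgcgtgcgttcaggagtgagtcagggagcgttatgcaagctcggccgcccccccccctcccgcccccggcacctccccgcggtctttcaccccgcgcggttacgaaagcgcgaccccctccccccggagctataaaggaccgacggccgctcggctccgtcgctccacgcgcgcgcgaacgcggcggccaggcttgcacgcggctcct
Cdkn2a promoter 1 lies at the start of the p19Arf transcript and promoter 2 at that of p16Ink4a, both in the gene at chr4:89274471-89294653, and Rbp4 lies at chr19:38116629-38125281. Rbp4 promoter 1 held 2 matches, starting at -29 and -5 from the start site, and Rbp4 promoter 2 and both Cdkn2a promoters held 0. The RefSeq promoters of Dkk2, Tnc and Bmp5 held 0 as well. Of 32851 promoters of the same length, 16.003% held at least 1 match on either strand and 1.73% held at least 2. Cdkn2a promoter 1 held 45 CG dinucleotides, more than 98.1% of promoters, Cdkn2a promoter 2 held 12, Rbp4 promoter 1 held 5 and Rbp4 promoter 2 held 40, more than 96.1% of promoters, against a median of 7. These are descriptions of letters in a window and not of binding. Sequences were matched for 5 of the 7 genes, Dkk2, Tnc, Bmp5, Rbp4 and Cdkn2a; the others are Car3 and Notum.

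The Tom- library held 13551 barcodes and 197232860 UMIs, and the Tom+ library 2783 barcodes and 34455896 UMIs. Members had a median of 14363 UMIs in the Tom- and 12564 in the Tom+ library, and other stromal cells, which met the same gates with fewer than 3 of the 5 genes, had 11757.5 and 9440.5. The libraries shared 966 barcodes, and a shared barcode was kept only where its copy was over 10 times deeper than the other. No Tom- member and 4 of the 36 Tom+ members carried a shared barcode, and values that rest on those 4 cells are given with and without them.

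The cells carried fibroblast transcripts. All 16 genes of a fibroblast list were detected, and their summed level in the Tom- library was 46263 CPM (UMIs per 1000000 UMIs of the summed cells) in members and 46526 CPM in other stromal cells. Pdgfra, a growth factor receptor that marks fibroblasts, stood at 355 and 338 CPM, while the small proteoglycan gene Lum stood at 144 and 1163 CPM. Car3, which encodes carbonic anhydrase III, is also abundant in fat and skeletal muscle. Of 18 adipocyte genes 9 were detected in the Tom- members. The list summed to 122 CPM there and 166 CPM in other Tom- stromal cells. Adipoq, Cidec and Lep had 0 UMIs in the Tom- members, which allows up to 0.147 CPM each, and Plin1 had 6. Of 16 skeletal muscle genes 11 were detected in the Tom- members. That list summed to 10.3 CPM there and 14.01 CPM in other Tom- stromal cells. In the Tom- members Ckm and Myh4 had 2 and 0 UMIs and Tnnt3 had 33. The leukocyte gene Ptprc had 1 UMI and the Schwann cell gene Sox10 had 0. The 7 erythroid genes summed to 7503 CPM in Tom- members and 4231 CPM in other Tom- stromal cells. Smooth muscle and mural genes had a summed level of 1513 CPM in members and 361 CPM in other stromal cells. Of 11 measured genes of that list, Actg2, Lmod1, Tagln, Acta2, Myh11 and Cspg4 were at least 2 times higher in members and Kcnj8, Des and Abcc9 at least 2 times lower. Acta2, smooth muscle actin, was 629 against 114 CPM, and Des, the muscle filament desmin, 2.15 against 17.0 CPM.

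**Figure D1:**
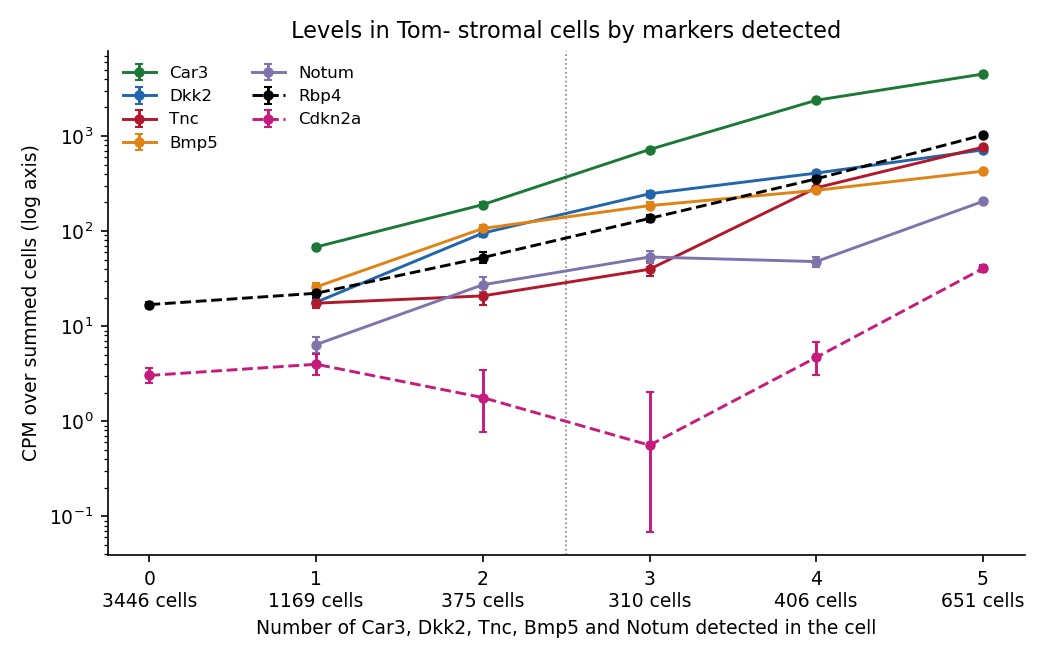
Levels (CPM, log axis) in Tom- stromal cells by how many of the 5 genes were detected in a cell, from 0 to 5; bars are exact 95% Poisson intervals. The 5 genes follow the rule that sorts the cells, Rbp4 follows them from 16.9 to 1023 CPM, and Cdkn2a stands between 0.559 and 4.69 CPM up to 4 genes and at 40.4 CPM at 5.

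Detection of the 5 genes was not split evenly. In the Tom- library 3446 stromal cells held none of them, 1169 held 1, 375 held 2, 310 held 3, 406 held 4 and 651 held all 5. In the Tom+ library the corresponding numbers were 820, 59, 11, 8, 12 and 16. Cells just outside and just inside the limit differed most in Car3, which was 189.8 CPM in Tom- cells with 2 of the genes and 722 CPM in those with 3. Dkk2 was 95.3 and 247 CPM on the 2 sides of the limit, Bmp5 107 and 185, Notum 27.2 and 53.4, and Tnc 20.8 and 39.7 CPM. Cells with all 5 genes held 4487 CPM of Car3, 714 of Dkk2, 763 of Tnc, the matrix glycoprotein tenascin-C, 427 of the BMP ligand gene Bmp5 and 205 of Notum. In the 59 Tom+ stromal cells with 1 of the genes Cdkn2a was 44.1 CPM, but all 35 UMIs lay in 5 cells. In the 820 with none it was 7.25 CPM, from 67 UMIs in 28 cells. The levels of the 5 genes rise by construction with the number of them detected. Median depth in the Tom- library also rose, from 11534.5 UMIs in cells with 3 of the genes to 16587 in cells with 5. Levels over all members are weighted to the cells with all 5 genes.

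The population was rare among reporter-positive cells. It made up 21.5% (20.5 to 22.5) of Tom- stromal cells and 3.89% (2.74 to 5.34) of Tom+ stromal cells. Put the other way, 2.57% (1.80 to 3.53) of the 1403 members came from the Tom+ library, against 15.1% (14.2 to 16.1) of the 5880 other stromal cells. 2 groups were drawn from the other stromal cells, so they hold no members, and cells meeting both rules were left out. Those with at least 2 of Cck, Wnt2 and Cxcl14 had 5.83% (4.66 to 7.18) in the Tom+ library. Those with at least 2 of Gdf10, Myoc and Penk had 18.8% (15.98 to 21.8). The Tom+ share was close in members with a Cdkn2a UMI, 3 of 115 (2.61%, 0.541 to 7.43), and in members without, 33 of 1288 (2.56%, 1.77 to 3.58), and the interval of the former is wide. All 3 Tom+ cells with Cdkn2a carried a barcode that the Tom- library also held. Without shared barcodes the numbers were 0 of 112, which allows a share of up to 2.68%, and 32 of 1287 (2.49%), and the shares of members and of other stromal cells were 2.29% and 13.8%. How many cells were sorted and loaded for each library sets these shares, so only their order between populations can be read.

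**Figure D2:**
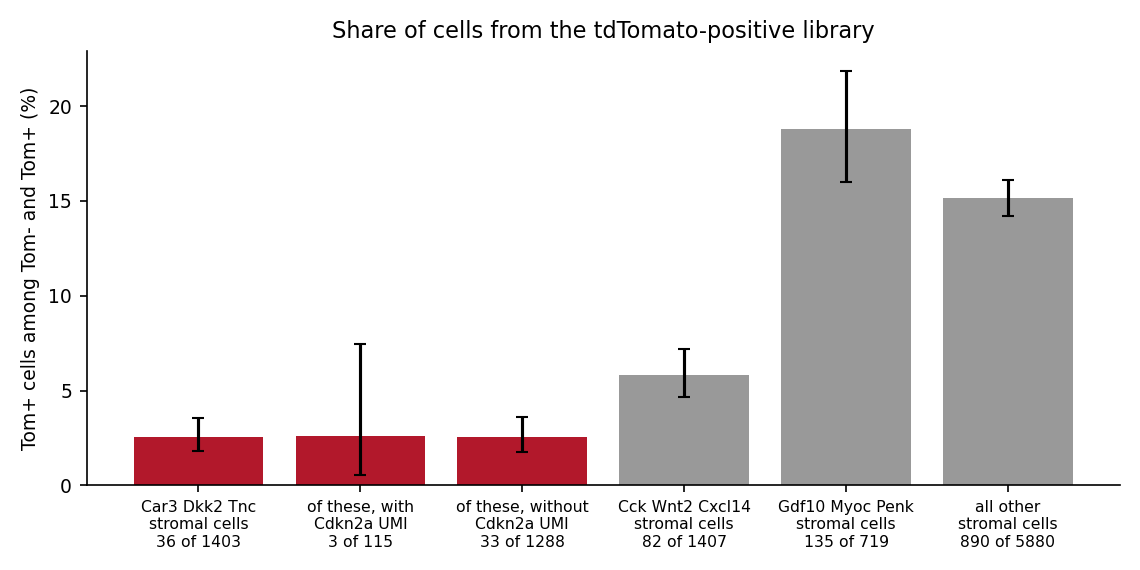
Share of cells from the Tom+ library (%) among all cells of each stromal population, with exact 95% binomial intervals; the numbers under the bars are Tom+ cells of all cells. The bars of the Car3 Dkk2 Tnc cells, with or without Cdkn2a, lie near 2.6% and the other populations between 5.83% and 18.8%. Those other populations hold no Car3 Dkk2 Tnc cells.

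The reporter transcript went with the sort. tdTomato was 25.7 CPM (23.5 to 28.0) in Tom- members and 2923 CPM (2772 to 3081) in Tom+ members, and all 36 Tom+ members held a tdTomato UMI. In other stromal cells it was 17.8 and 1532 CPM, and in urothelial cells 46.0 and 1001 CPM. The Tom- members therefore lay between other stromal and urothelial cells of their own library. Within the Tom- members tdTomato was 33.8 CPM (26.5 to 42.5) in cells with a Cdkn2a UMI and 24.7 CPM (22.5 to 27.1) in cells without, and after each cell was thinned to 2000 UMIs a tdTomato UMI was found in 4.55% of the former and 4.56% of the latter.

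In the Tom- library Cdkn2a was higher in the population than in the other stromal cells. The 1367 Tom- members held 478 Cdkn2a UMIs, 23.4 CPM (21.3 to 25.6), against 3.19 CPM (2.77 to 3.66) in 4990 other stromal cells, a ratio of 7.33 (6.21 to 8.67). The level was 1.18 CPM in the Cck Wnt2 Cxcl14 cells and 2.10 CPM in the Gdf10 Myoc Penk cells. The Tom+ library did not show this order once shared barcodes were left out: Tom+ members had 25.1 CPM and other Tom+ stromal cells 10.05 CPM with them, and 0 UMIs, which allows up to 7.87 CPM, and 6.65 CPM (4.94 to 8.77) without them. The Tom+ Gdf10 Myoc Penk cells had 16.02 CPM. Members held 65.4% (61.8 to 68.8) of all 731 Cdkn2a UMIs of the filtered Tom- cells but 10.97% of all their UMIs, and 10.3% of 117 in the Tom+ library, with 1.44% of its UMIs. A Cdkn2a UMI was found in 8.19% (6.79 to 9.78) of the members and in 2.04% (1.67 to 2.48) of other stromal cells, at median depths of 14363 and 11757.5 UMIs. Urothelial cells, at a median depth of 39500 UMIs, gave 0.773% (8 of 1035 cells). They serve here as cells of another type; free RNA itself was not measured. Thinned to 2000 UMIs per cell, the shares were 2.79% (1.98 to 3.82) of 1360 members, 0.451% of 4652 other stromal cells and 0 of 1020 urothelial cells, for which the exact interval ends at 0.361%.

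The transcript was spread unevenly over the members. Of the 112 Tom- members with Cdkn2a, 44 held 1 UMI, 17 held 2 and 51 held 3 or more. The 18 cells with at least 10 UMIs held 237 of the 478, or 49.6%, and the highest cell held 17. Among the 102 other stromal cells with Cdkn2a, 64 held 1 UMI and 2 held at least 10. Members with a Tnc UMI held 477 of the 478 Cdkn2a UMIs (1020 cells), and the 347 members without one held the remaining 1. Notum divided them less sharply, with 455 UMIs in 907 cells that held it and 23 in 460 cells that did not, and the 46 members without Car3 had 0. These splits share depth, since a deeper cell shows more of every gene. Cdkn2a relative to all UMIs also differed with depth, from 5.37 CPM (3.07 to 8.71) in the 342 shallowest Tom- members to 46.1 CPM (41.4 to 51.2) in the 342 deepest, which began at 17792 UMIs.

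In Tom- members Cdkn2a followed Rbp4, the gene of the retinol carrier of blood plasma. Rbp4 itself was 679.6 CPM in Tom- members and 20.8 CPM in other stromal cells, and 1112 and 14.2 CPM in the Tom+ library. Cdkn2a was 0.670 CPM (0.0811 to 2.42) in the 244 Tom- members without Rbp4. It was 2.79 CPM (1.81 to 4.12) in the 612 cells with up to 5 Rbp4 UMIs per 10000, 21.9 CPM (18.5 to 25.7) in the 409 cells with 5 to 20, and 169 CPM (151 to 190) in the 102 cells above 20. The share of cells with a Cdkn2a UMI went from 0.820% through 2.12% and 11.98% to 47.1%, and after thinning from 0.410% through 0.654% and 3.95% to 17.2%. The median depth of the 4 bins went from 11536 to 18383 UMIs. In other Tom- stromal cells Cdkn2a was 2.97 CPM (2.53 to 3.47) without Rbp4 and 4.23 CPM (3.09 to 5.64) with up to 5 per 10000, and 36 and 7 shallow cells lay in the bins above. In other Tom+ stromal cells it was 7.55 CPM (5.84 to 9.60) without Rbp4 and 25.9 CPM (18.1 to 35.8) with up to 5 per 10000. The latter rests on 36 UMIs in 8 of 97 cells. Of all Cdkn2a UMIs of the other Tom+ stromal cells, 52 lay in cells with a shared barcode and 50 in the rest. The bins were not split by barcode, so no order is read from them. The Tom+ members had 0 Cdkn2a UMIs in 18 cells with up to 5 per 10000, 6 in 14 cells with 5 to 20 and 6 in 4 cells above 20, all in cells with a shared barcode, so without these every bin had 0. The limit of 20 per 10000 falls in a continuum, with 61 members between 15 and 20 and 52 between 20 and 25.

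**Figure D3:**
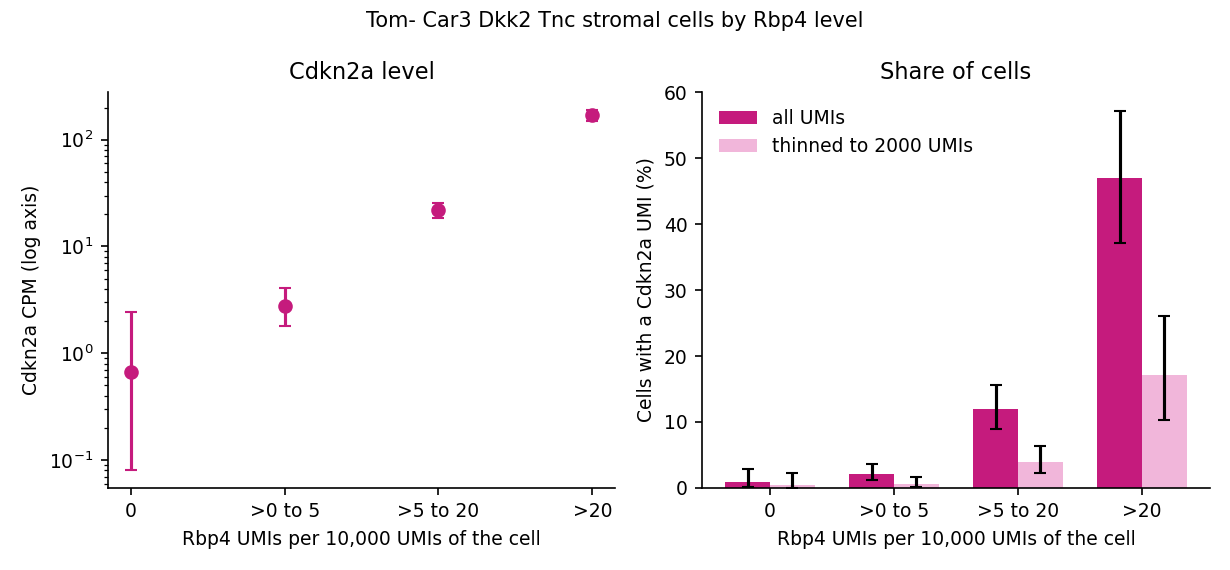
Cdkn2a in the 1367 Tom- Car3 Dkk2 Tnc cells by the cell's Rbp4 level (UMIs per 10000 UMIs): left, level in CPM on a log axis with exact 95% Poisson intervals; right, share of cells with a Cdkn2a UMI (%) with exact 95% binomial intervals, before and after thinning to 2000 UMIs per cell. The level goes from 0.670 to 169 CPM and the thinned share from 0.410% to 17.2%.

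Other genes differed along the same axis in the Tom- members. From the cells without Rbp4 to those above 20 per 10000, Car3 went from 837 to 6614 CPM, Tnc from 98.1 to 1122 CPM and Hhip, the Hedgehog-interacting protein, from 144 to 1033 CPM. Cdkn2b, the neighbour of Cdkn2a that encodes the inhibitor p15, went from 16.7 through 25.3 and 62.7 to 107 CPM. Cdkn1a, the gene of the p53-controlled inhibitor p21, had no such order, at 142, 90.2, 135 and 242 CPM. The growth factor pleiotrophin (Ptn) went from 20.1 to 601 CPM and Gatm, which makes the precursor of creatine, from 5.36 to 255 CPM. In the other direction went 3 genes: Pi16, a peptidase inhibitor, from 938 to 66.9 CPM, the ferritin receptor gene Scara5 from 323 to 17.3 CPM, and the matrix gene Fbln1 from 2891 to 283 CPM. Col1a1 went from 5908 to 11952 CPM. Rbp4-high members thus held more Col1a1, a gene of the stromal gate, and less Pi16, Scara5 and Fbln1.

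Members were then set against the other stromal cells over all genes. In the Tom- library 9344 genes were measured (at least 10 CPM in 1 of the sets and 20 UMIs in both together). On the scale with 1 CPM added, 461 (4.93%) were at least 2 times higher and 669 (7.16%) at least 2 times lower in members, and the median log2 ratio was 0.03. In the Tom+ library, where the set holds 36 cells, 712 (7.4%) of 9623 were higher and 1144 (11.9%) lower. Transcripts of mesothelial cells, which line the outer surface of the bladder and also make collagen, were more frequent among the other stromal cells: 869 of 4990 cells (17.4%) held at least 2 UMIs of Msln, Upk3b and Lrrn4, against 21 of 1367 members. The 15 mesothelial genes summed to 3148 CPM in other stromal cells and 516 CPM in members. Without those cells, an alternative chosen after the data were seen, 444 genes were higher and 486 lower, and list counts are given without them where they differ by more than 1 gene.

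**Figure D4:**
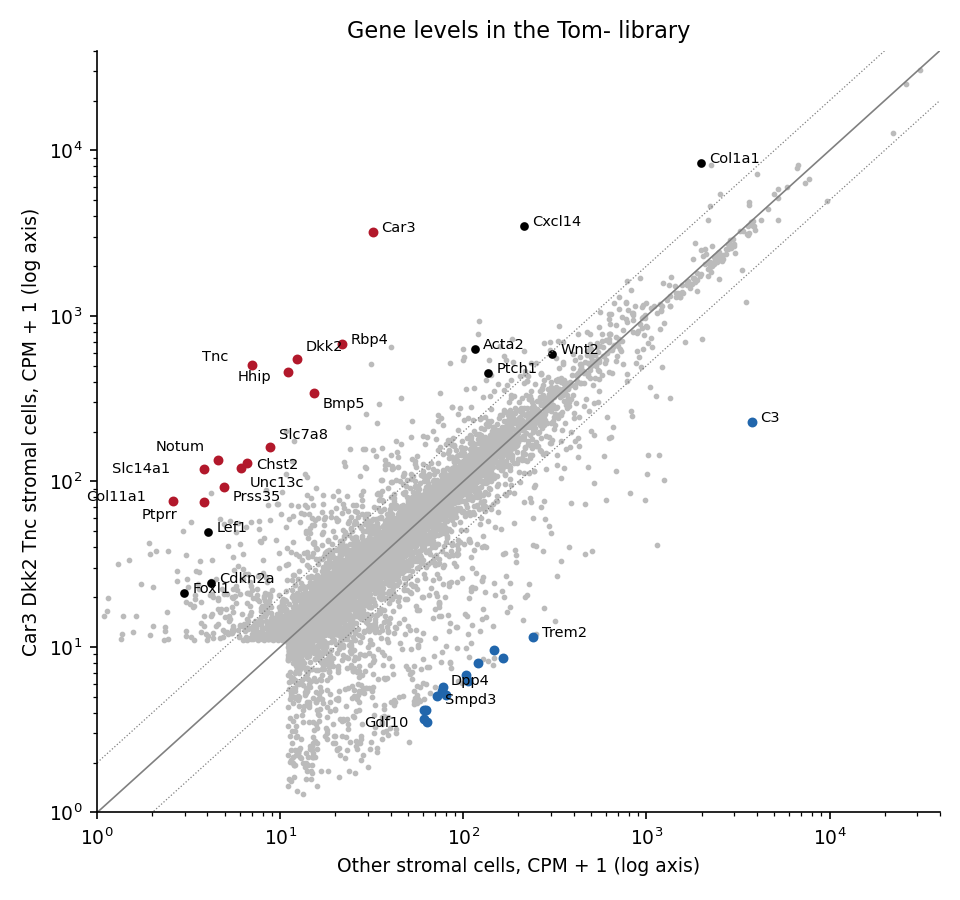
Level of each measured gene in Tom- Car3 Dkk2 Tnc cells (vertical) and other Tom- stromal cells (horizontal), CPM + 1 on log axes; the solid line marks equal levels and the dotted lines a factor of 2, red and blue points are genes among the 15 highest and the 15 lowest, and black points other genes of the text. Car3, Tnc, Dkk2, Hhip and Rbp4 stand far above the line and C3, Trem2 and Gdf10 far below it.

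Beyond the genes of the rule, the highest genes covered signalling, matrix and transport. Hhip was 454 against 9.98 CPM, a ratio of 45.5 (42.0 to 49.4), and 571 against 3.25 CPM in the Tom+ library. Col11a1, a minor fibrillar collagen, was 74.7 against 1.60 CPM, a ratio of 46.6 (38.1 to 57.4), and the urea transporter gene Slc14a1 119 against 2.82 CPM, a ratio of 42.1 (36.2 to 49.2). The amino acid transporter gene Slc7a8 (160.0 against 7.83 CPM), the sulfotransferase gene Chst2 (128 against 5.60 CPM), the phosphatase gene Ptprr (74.2 against 2.82 CPM), Unc13c (119 against 5.11 CPM) and Prss35 (91.9 against 3.92 CPM) were also among the 15 highest. The chemokine gene Cxcl14 was 3478 against 213 CPM, a ratio of 16.3 (16.01 to 16.6), and 3908 against 60.6 CPM in the Tom+ library. Cxcl12, the chemokine of the receptor Cxcr4, was 225 against 284 CPM, and 219.6 against 456 CPM in the Tom+ library. All of these genes but Cxcl12 were at least 2 times higher in members in both libraries.

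Among the lowest genes were those of adventitial fibroblasts, of immunity and of mesothelium. C3, the central complement component, was 226 against 3759 CPM in the Tom- library and 27.2 against 3809 CPM in the Tom+ library. The BMP-family ligand gene Gdf10 was 3.13 against 61.9 CPM, the peptidase gene Dpp4 4.403 against 75.5 CPM, the sphingomyelinase gene Smpd3 4.06 against 70.7 CPM and the prostaglandin receptor gene Ptger3 4.75 against 76.0 CPM. Each of these 4 had 0 UMIs in the Tom+ members, which allows up to 6.27 CPM, and 60.1 to 81.7 CPM in the other Tom+ stromal cells. The MHC class II genes H2-Eb1 (5.19 against 105 CPM) and H2-Aa (4.11 against 79.6 CPM) were low as well, and so were Atp1b1 (6.996 against 119.8 CPM) and Ifi205 (3.13 against 59.8 CPM). The rest of the 15 differed less without the cells holding mesothelial UMIs: the log2 ratio went from -4.26 to -1.09 for the chemokine gene Cxcl5, from -4.39 to -2.26 for Trem2, from -3.93 to -1.44 for Cxadr and from -4.04 to -1.66 for Lgals7. Prr15 went from -4.17 to -0.96 and Pkhd1l1 from -3.94 to -0.65, which ends their count as 2 times lower.

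The Wnt genes are given by role. Of 8 measured ligand genes 1 was at least 2 times higher and 2 lower. Wnt5b was 47.7 against 13.6 CPM, and Rspo1, whose product potentiates Wnt and which the mesothelial list also holds, 5.38 against 105 CPM. Wnt2 was 584 against 305 CPM, a ratio of 1.92 (1.87 to 1.96), and Wnt4 276 against 205 CPM. Beside Dkk2 and Notum of the rule, 2 of 7 secreted antagonists were higher and 1 lower, and their median log2 ratio was 0.65. Sostdc1 (53.7 against 13.96 CPM) and Dkk3 (515 against 232 CPM) were higher. Sfrp4 was lower, at 12.3 against 90.9 CPM. Of 16 receptors and transducers 3 were higher and 1 lower, led by Lgr5, a receptor for R-spondins, at 71.4 against 14.1 CPM.

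Wnt feedback and target genes had 6 of 12 measured members higher and 1 lower. Their median log2 ratio was 0.94, against 0.03 over all genes. Lef1, a TCF/LEF factor that is itself a target, was 48.8 against 3.04 CPM, a ratio of 16.1 (13.8 to 18.8), and 48.1 against 1.38 CPM in the Tom+ library. Its relative Tcf7 was 21.4 against 6.46 CPM, and the cyclin gene Ccnd1 54.4 against 24.2 CPM. Axin2, a feedback inhibitor, was 75.4 against 40.8 CPM, a ratio of 1.85 (1.74 to 1.97). Myc was lower, at 8.95 against 23.4 CPM.

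Of 12 BMP and TGF-beta ligand genes beside Bmp5 of the rule, 6 were higher and 4 lower, and their median log2 ratio was 0.29. Bmp3 was 139 against 43.2 CPM, Bmp2 80.1 against 18.5 CPM, Bmp7 20.01 against 3.94 CPM and Bmp4 444 against 216 CPM. Bmp6 (13.0 against 43.6 CPM) and Tgfb2 (39.4 against 125 CPM) were lower. The 10 measured receptors of these ligands all lay within a factor of 2. Of 16 antagonists and targets 3 were higher and 4 lower, with Fst, the gene of follistatin, at 1.42 against 19.3 CPM.

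The Hedgehog list had 5 of 14 genes higher and 3 lower, and its median log2 ratio was 0.70. Ptch1, the receptor and a target of the pathway, was 452 against 136 CPM, a ratio of 3.33 (3.23 to 3.43), and 414 against 111 CPM in the Tom+ library. The forkhead factor genes Foxl1 (20.1 against 1.98 CPM), Foxf2 (70.35 against 11.5 CPM) and Foxf1 (242 against 74.9 CPM) were higher. Gli1, the transcription factor of the pathway, was 41.0 against 20.6 CPM, a ratio of 1.99 (1.82 to 2.17). The co-receptor genes Gas1 (144 against 1016 CPM) and Cdon (3.72 against 56.7 CPM) were lower. Target genes and the inhibitor Hhip were thus high where these co-receptors were low.

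Collagens had 13 of 23 genes higher and 3 lower, at a median log2 ratio of 1.10 (10 and 2 of 22 without the mesothelial-UMI cells). Col1a1 was 8443 against 1988 CPM, a ratio of 4.25 (4.22 to 4.28), and Col12a1, a collagen bound to fibrils, 928 against 119.98 CPM; Col1a1, Col1a2 and Col3a1 also belong to the gate on all stromal cells. The basement membrane gene Col4a1 was 538 against 136 CPM, whereas Col14a1 was 248 against 829.9 CPM. Matrix genes other than collagens and Tnc were mixed, 11 of 57 higher and 22 lower (9 and 24 without those cells), with Spon1 at 646 against 39.1 CPM. Of 21 genes of adventitial and progenitor fibroblasts 15 were lower and 1, Lepr, higher, at a median log2 ratio of -2.40 (17 and 0 without the mesothelial-UMI cells). Dpt was 35.2 against 458 CPM and Cd34 114 against 681 CPM, while Ly6a, the gene of Sca-1, was 969.8 against 949.9 CPM.

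In the retinoid list 2 of 15 genes were higher, Rbp4 and the retinoic acid-making enzyme gene Aldh1a2 (142 against 54.5 CPM), and 4 lower, with Aldh1a3 at 7.09 against 83.7 CPM. Of 3 measured carbonic anhydrase genes only Car3 passed a factor of 2, and Car2 was 11.5 against 9.82 CPM. Among 39 posterior patterning and stromal transcription factors 13 were higher and 8 lower (13 and 11 of 41 without the mesothelial-UMI cells). Runx2, a factor of skeletal cells, was 48.3 against 4.73 CPM, Tbx2 110.5 against 12.6 CPM and Hoxa11 154 against 31.0 CPM, whereas Ebf2 was 3.52 against 53.1 CPM and Hoxd11 1.61 against 18.9 CPM.

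Cell-cycle inhibitor genes did not move as a group. Of 22 genes 3 were higher, Cdkn2a, Cdkn2b (43.5 against 8.45 CPM, a ratio of 5.14, 4.62 to 5.74) and Ets1 (40.8 against 18.3 CPM), and 2 were lower, Cdkn2c (7.58 against 38.3 CPM) and Cdkn1c (35.5 against 165 CPM). In the Tom+ library Cdkn2b was 18.8 CPM in members, from 9 UMIs, and 10.2 CPM in other stromal cells, and without shared barcodes 7.87 CPM, from 3 UMIs, and 8.65 CPM. Cdkn1a was 126 against 117 CPM, a ratio of 1.07 (1.03 to 1.12), and its log2 ratio of 0.10 became -0.20 without cells holding mesothelial UMIs and -0.07 with equal weight per cell. Of 18 p53 target genes 2 were higher, Plk2 (130.4 against 21.2 CPM) and Btg2 (387 against 154 CPM), and 1 lower. Of 50 secretory factors linked to senescence 5 were higher and 23 lower, at a median log2 ratio of -0.77 (5 and 21 of 48, -0.38, without the mesothelial-UMI cells). Chemokine genes were 2 higher and 9 lower of 14 (2 and 7 of 12), where Ccl2 was 7.19 against 135 CPM, and complement genes 0 higher and 7 lower of 12. Most measured chemokine and complement genes were thus at least 2 times lower in Tom- members than in all other Tom- stromal cells. Without the mesothelial-UMI cells 6 of 12 complement genes were lower and 0 higher. Whether these differences go with the Cdkn2a level was not tested here.

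Members were also set against the 2 groups drawn from the other stromal cells, which hold no members. In the comparison with the 1325 Tom- Cck Wnt2 Cxcl14 cells 403 (4.35%) of 9258 genes were higher in members and 540 (5.83%) lower, and with the 584 Tom- Gdf10 Myoc Penk cells 616 (6.63%) and 634 (6.82%) of 9297. Hhip was 18.9 CPM in the former cells and 1.98 CPM in the latter, against 454 CPM in members. Lef1 was 6.403 and 0.741 CPM against 48.8 CPM. Acta2 was 85.0 and 28.8 CPM against 629 CPM. Cxcl14 and Wnt2, which helped to choose the Cck group, were 686 and 471 CPM there. Members were left out of that group whatever their Cxcl14 and Wnt2, so these levels do not rank the 2 sets for these genes.

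Within the population, Tom- members with a Cdkn2a UMI (112 cells) were set against those without (1255 cells). The former were deeper, with medians of 19159 and 13963 UMIs and of 4682 and 3978 genes, and had 4.84% and 3.86% mitochondrial UMIs. Of 9085 measured genes 232 (2.55%) were at least 2 times higher with Cdkn2a and 206 (2.27%) lower, 4.82% in all, and the median log2 ratio was -0.01. The counts were 221 and 201 among members of at least 10000 UMIs, but 456 and 1132 after each member was thinned to 2000 UMIs. Scrublet called 5 of the 112 and 61 of the 1255 cells as doublets (4.46% and 4.86%).

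Cells with Cdkn2a held more of a set of growth factor, receptor and metabolic genes. Gatm was 241 against 22.0 CPM, a ratio of 10.96 (9.60 to 12.5), and Tlr12, a Toll-like receptor gene, 83.0 against 7.44 CPM, a ratio of 11.2 (8.88 to 14.04). Apela, the gene of a peptide ligand of the apelin receptor, was 62.6 against 8.70 CPM, and Ptn 544 against 82.4 CPM. Receptor and adhesion genes followed, among them Adgrf5 (69.1 against 12.6 CPM), the protein C receptor gene Procr (124 against 23.8 CPM), Nell2 (80.6 against 11.5 CPM) and Ntng1 (87.6 against 16.5 CPM). The growth factor gene Pdgfc was 191 against 40.3 CPM and the fatty acid receptor gene Cd36 56.1 against 10.4 CPM. Gng2 (78.3 against 15.4 CPM) and Gdap10 (80.2 against 14.001 CPM) completed the 12 highest genes.

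The 12 lowest genes included those that were low at high Rbp4. Scara5 was 22.2 against 133 CPM, Pi16 102 against 536 CPM and Fbln1 435 against 1998 CPM. The neuropeptide Y receptor gene Npy1r was 36.2 against 192 CPM and the endothelin receptor gene Ednrb 15.8 against 77.7 CPM. Matrix genes Sparcl1 (77.4 against 404 CPM) and Tnxb (38.0 against 200.3 CPM), the secreted immune genes Serpina3n (89.0 against 449 CPM), Lbp (63.5 against 312 CPM) and C4b (36.6 against 174 CPM), Asz1 (39.4 against 199 CPM) and the nucleotidase gene Entpd2 (37.5 against 186 CPM) made up the rest. Of 16 measured adventitial and progenitor genes 9 were lower and 1 higher, at a median log2 ratio of -1.14.

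Cell-cycle inhibitor genes were mixed. Cdkn2b was 119 against 34.6 CPM, a ratio of 3.43 (2.95 to 3.97), Cdkn1a 278 against 108 CPM, a ratio of 2.58 (2.35 to 2.83), and Cdkn1c, the gene of p57, 12.5 against 38.2 CPM; these were 2 higher and 1 lower of 20. The p53 target list had 4 of 18 higher and none lower, at a median log2 ratio of 0.61: Cdkn1a, Eda2r (17.6 against 7.06 CPM), Sesn2 (10.2 against 3.88 CPM) and Btg2 (763 against 342 CPM). Trp53 itself was 62.1 against 60.8 CPM, and Mdm2, the main inhibitor of p53, 34.3 against 29.6 CPM, a ratio of 1.16 (0.895 to 1.48). Secretory factors linked to senescence were 3 higher and 2 lower of 39, with a median of -0.09, and 4 higher and 5 lower of 40 without the cells holding mesothelial UMIs. Cxcl14 was 5580.1 against 3230.4 CPM and Cxcl12 316 against 214 CPM, both under a factor of 2.

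Wnt, BMP and Hedgehog genes differed too. Of 13 Wnt targets 4 were higher and none lower: Sp5 (17.6 against 2.79 CPM), Ccnd1 (163 against 41.6 CPM), Lef1 (112 against 41.3 CPM) and Rnf43 (15.3 against 5.69 CPM), while Axin2 was 87.1 against 74.1 CPM. Notum was 285 against 117 CPM, a ratio of 2.44 (2.23 to 2.67), and the Wnt antagonist gene Sfrp1 38.9 against 139 CPM. The ligand genes Wnt2 (292 against 619 CPM) and Wnt11 (10.2 against 49.1 CPM) were lower, and Wnt4 (482 against 251 CPM) was not past the factor. Bmp7 was 60.7 against 15.2 CPM, Bmp2 158 against 70.9 CPM and the BMP antagonist gene Nog 23.6 against 2.84 CPM, a ratio of 8.31 (5.54 to 12.5). Hhip was 953 against 395 CPM, Ptch1 847 against 405 CPM and Foxl1 56.1 against 15.8 CPM, the 3 higher genes of 13 in the Hedgehog list, while Gli1 was 47.7 against 40.2 CPM.

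Of 13 mesothelial genes 8 were at least 2 times higher in the cells with Cdkn2a, and the list summed to 849 against 477 CPM. These values rest on few cells: at least 2 UMIs of Msln, Upk3b and Lrrn4 were held by 2 of the 112 and 19 of the 1255 cells, and without them 1 of 6 measured genes was higher. Slpi, 184 against 23.3 CPM over all cells, was then 9.63 against 11.4 CPM. The counts over all genes were 224 higher and 228 lower without these cells, and Cdkn1a was 282 against 109 CPM. Smooth muscle and mural genes summed to 2299 against 1419.9 CPM over all cells, with Acta2 at 1104 against 573 CPM.

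**Figure D5:**
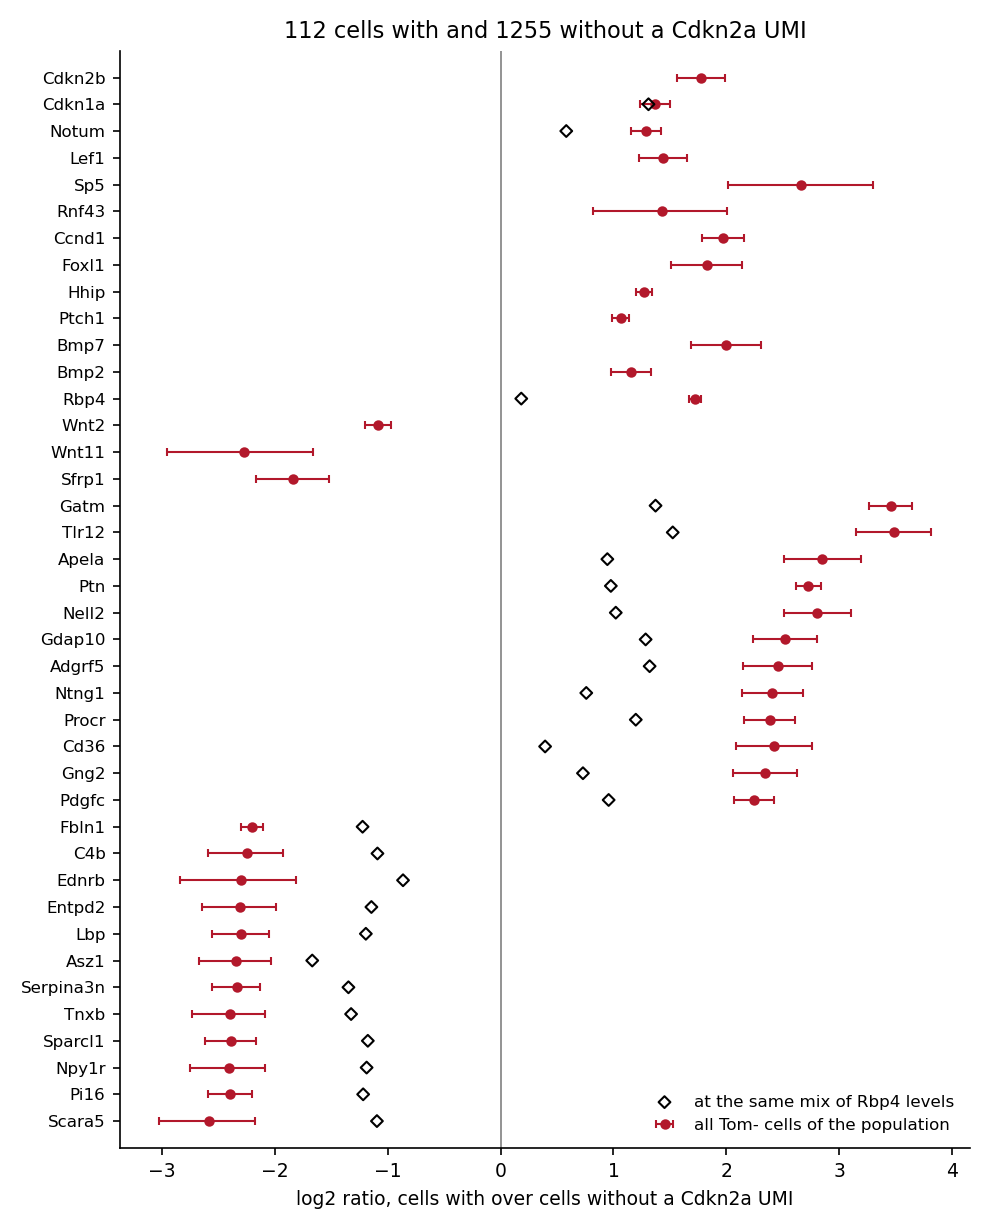
Log2 ratio of CPM in Tom- Car3 Dkk2 Tnc cells with a Cdkn2a UMI over those without, for named genes; dots are all cells with 95% conditional binomial intervals and open diamonds the ratio after cells without Cdkn2a were weighted to the same mix of Rbp4 levels (drawn for the genes for which it was computed). At the same mix Gatm and Tlr12 stand lower but above a log2 ratio of 1, Cdkn1a is at 1.30, and Rbp4 itself is at 0.18 on the scale with 1 CPM added.

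Since Cdkn2a followed Rbp4, the cells without Cdkn2a were also weighted to the mix of Rbp4 levels of the cells with it, an alternative chosen after the data were seen. The counts were then 110 genes higher and 67 lower. On the scale with 1 CPM added, the log2 ratio of Rbp4 went to 0.18, of Car3 to 0.14 and of Notum to 0.58. Cdkn1a went from 1.36 to 1.30, Gatm from 3.40 to 1.36, Tlr12 from 3.31 to 1.49, Ptn from 2.71 to 0.97 and Cd36 from 2.32 to 0.39. Of the lower genes Asz1 stood at -1.64, Fbln1 at -1.22 and Pi16 at -1.21. Among the 102 cells with the most Rbp4, the 48 with Cdkn2a held 366 CPM of Cdkn1a and the 54 without 113 CPM. The Cdkn1a ratio there was 3.25 (2.59 to 4.11), and 2.10 (1.80 to 2.44) among the 409 cells with 5 to 20 per 10000. Among the 612 cells with up to 5 per 10000 Cdkn1a was 68.4 against 90.8 CPM, a ratio of 0.753 (0.444 to 1.20). The former level rests on 18 Cdkn1a UMIs in 13 cells with Cdkn2a. Without Rbp4 the ratio was 3.59 (1.90 to 6.21), with only 2 cells holding Cdkn2a.

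The 36 Tom+ members were set against the 1367 Tom- members last. With 478222 UMIs in the Tom+ set, 183 (1.99%) of 9216 measured genes were at least 2 times higher in Tom+ and 352 (3.82%) lower, 5.81% in all, and the median log2 ratio was 0.01. These counts moved by over 1.5 times under each of 3 other rules for low values. The defining genes stood within a factor of 2. Members of each library were chosen by detection of these same genes. Their similar levels are therefore in part set by the rule and are given as a description, not as a result of the comparison. In Tom+ and Tom- members, Car3 was 4002 and 3235 CPM, Dkk2 667 and 546 CPM, Bmp5 404 and 339.9 CPM, Notum 128 and 134 CPM and Cxcl14 3908 and 3478 CPM. Tnc was 838.5 and 502 CPM (ratio 1.67, 1.51 to 1.85), and Rbp4 1112 and 679.6 CPM (ratio 1.64, 1.498 to 1.79). No collagen of 22, no Wnt target of 11 and no BMP or TGF-beta ligand of 11 reached a factor of 2 in either direction. Since only 5.81% of all measured genes did, none in lists of this size is near that share.

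Cdkn2a was not detected in the Tom+ members that the Tom- library did not share. It was 25.1 CPM (13.0 to 43.8) in the 36 Tom+ members, from 12 UMIs in 3 cells, against 23.4 CPM in Tom- members, a ratio of 1.07 (0.551 to 1.89). All 12 UMIs lay in the 4 cells with a shared barcode, where the level was 124 CPM (64.0 to 216). The 32 other Tom+ members had 0, which allows up to 7.87 CPM if UMIs are taken as independent. They are not, and only 8.19% of Tom- members held a Cdkn2a UMI. So few cells cannot place these Tom+ members below the level of Tom- members. Cdkn1a followed the same 4 cells: it was 186 CPM in all Tom+ members and 126 CPM in Tom- members (ratio 1.48, 1.18 to 1.83), with 588 CPM (445 to 762) in the 4 cells and 83.9 CPM (57.4 to 118) in the 32. tdTomato was 2899 CPM in the 4 and 2930 CPM in the 32 cells. The 4 cells had a median of 24590.5 UMIs and the 32 a median of 12157.5. Whether the shared barcodes come from cells of the other library was not tested.

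Named differences between the libraries were few and rest on small numbers. In Tom+ and Tom- members, Ntng1 was 79.5 and 24.0 CPM (ratio 3.31, 2.31 to 4.61), Nell2 56.5 and 18.8 CPM (ratio 3.00, 1.95 to 4.43) and Gatm 96.2 and 45.2 CPM (ratio 2.13, 1.55 to 2.86). Without the 4 cells the log2 ratios of these genes were 1.35, 1.63 and 0.88. The remaining highest genes, Cndp2, Stx6, Abce1, Borcs8 and Sema3b, had 26 to 34 UMIs in Tom+ members and lay near a factor of 2. Lower in Tom+ were the acute-phase gene Saa3 (4.18 and 100.5 CPM), Igfbp5, which binds insulin-like growth factors (8.36 and 76.5 CPM), C3 (27.2 and 226 CPM) and Ly6d (12.5 and 62.1 CPM). Hsd17b4, Ildr2, Mkrn1 and the ligand gene Wnt5a (27.2 and 63.4 CPM) had ratios between 0.365 and 0.429. Cdkn2b was 18.8 and 43.5 CPM, a ratio of 0.433 (0.197 to 0.825), and 7.87 CPM without the 4 cells.

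Transcripts of other cell types differed between the libraries in the same members. The 7 erythroid genes summed to 35.5 CPM in Tom+ and 7503 CPM in Tom- members, and to 42.6 and 4231 CPM in the other stromal cells. The urothelial list summed to 85.7 CPM in Tom+ and 226 CPM in Tom- members, and the mesothelial list to 372 and 516 CPM, with Upk3b and Lrrn4 at 0 in Tom+. None of the 36 Tom+ and 21 of the 1367 Tom- members held at least 2 UMIs of Msln, Upk3b and Lrrn4. Of 11 complement genes 4 were at least 2 times lower in Tom+, C3, Clu and Cfb among them. The part of RNA from other cells in the differences between libraries was not tested.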

How the data were processed

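UMI counts per gene and barcode were deposited by the authors as 2 filtered matrices of 31054 features, 1 for each sort, including a tdTomato feature. Cell Ranger 7.0.0 and build mm10 are named per the submitters' processing notes, while the matrices carry software version 3.0.2 per the file headers, so the version that selected the barcodes is unsure; further settings are not given in the sources used here. Every column of the matrices was used. Barcodes were kept if they had 1000 UMIs and 500 genes or more, fewer than 15% of UMIs from mitochondrial genes, and no copy in the other library or one over 10 times shallower.

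The counts were summed over the cells of a set and library and given as CPM. Levels carry exact Poisson intervals, shares of cells exact Clopper-Pearson intervals, and ratios intervals from the conditional binomial, all at 95%. UMIs of 1 cell are not independent, so the intervals cover counting error only. Beside 0 UMIs stands the level that 3 UMIs would give. With 1 library per group no test was run. Measured genes reached 10 CPM in either set and 20 UMIs over both, and a gene was counted as higher or lower past a factor of 2 after 1 CPM was added. Thinning drew 2000 UMIs per cell and left out shallower cells. Set-to-set scripts were tested on simulated data.

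The members, the 40 gene lists and the groups compared were chosen with earlier results of these data known. Genes named were those of the rule, Rbp4, Cdkn2a, tdTomato, Cdkn1a, Cxcl12 and Cxcl14, then the 15, 12 or 8 highest and lowest ratios of the 3 main comparisons among genes that reached 50 CPM and were found in 10% or more of the cells of the higher set, and members of the pathway lists. Mitochondrial, ribosomal, haemoglobin and clone-named genes and markers of other cell types were left out of that ranking. Other genes named beside them were chosen after their values were seen, and a few genes are not reported here.

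Scrublet (in scanpy 1.11.5) called 690 Tom- cells (6.51%) and 10 Tom+ cells (0.528%) doublets. They were kept, and leaving them out was an alternative. edgeR 4.0.16 served for an alternative TMM scaling only, with Python 3.11.15, numpy 2.4.6, scipy 1.17.1, pandas 2.3.3 and matplotlib 3.10.9. Promoter sequences came from RefSeq tables of GRCm38.p6.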

Additional observations from a re-analysis of the deposited data

How the results depend on the processing

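Of 165 alternative values of the main results 128 moved little and 37 moved. These are counts, shares, levels and a ratio, for which a change of direction was not scored. The main values were 1367 and 36 members, a Tom+ share of 15.1% in other stromal cells, a Cdkn2a level of 23.4 CPM and ratio of 7.33, and counts (higher and lower) of 461 and 669 against other stromal cells, 232 and 206 by Cdkn2a, and 183 and 352 between Tom+ and Tom-. With at least 2 of the 5 genes the Cdkn2a level was 19.5 CPM, its ratio 5.90 and the Tom+ higher count 93. With at least 4 they were 28.2 CPM, 9.25 and 282, with 546 lower. Applying the rule to cells thinned to 2000 UMIs gave 659 and 23 members, a share of 13.7%, 39.6 CPM, a ratio of 11.3 and Tom+ counts of 313 and 572. Leaving out barcodes in both libraries gave a share of 13.8%. With no filter on low values the counts were 697 and 1248, 505 and 509, and 694 and 1598, and with at least 50 CPM in 1 set 233 and 265, 84 and 80, and 7 and 17. Adding 5 CPM gave Tom+ counts of 49 and 155. Thinning members to 2000 UMIs after detection gave 456 and 1132 by Cdkn2a. The Tom+ library in place of Tom- gave 712 and 1144 and a Cdkn2a ratio of 2.497, which rests on the shared barcodes: without them members had 0 UMIs and other stromal cells 6.65 CPM. Of alternatives chosen after seeing the data, at least 2 Cdkn2a UMIs against none gave 311 lower, and the same Rbp4 mix 110 and 67; the cause was not tested for any of these, but fewer or more genes were measured under the filters. The other settings left the main values close: a stricter cell filter, copies of barcodes kept, a higher stromal limit, Scrublet doublets or cells with mesothelial UMIs left out (the latter added after seeing the data), equal weight per cell, TMM scaling (shifts of -0.02 to -0.04 in log2), both libraries together, and members of at least 10000 UMIs (added as well). Of 1501 alternative values of single genes 1121 moved little and 380 moved. Only ratios within a factor of 2 changed sign, and those of the 2 inhibitors are given here. Cdkn1a in Tom+ against Tom- (log2 0.56) was -0.47 with at least 4 genes, -0.39 with the thinned rule and -0.58 without shared barcodes. Cdkn2a in Tom+ against Tom- (0.10) was -0.51 with equal weight per cell and -4.61, from 0 UMIs, without shared barcodes. Cdkn1a in members against other stromal cells (0.10) was -0.20 without mesothelial-UMI cells and -0.07 with equal weight per cell. No paired analysis was possible because each group has 1 library, so the libraries of this animal form a single pair with no spread between pairs. The 36 Tom+ members and 478 Cdkn2a UMIs limit what can be read.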

Other observations

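Several receptor, adhesion and metabolic genes not described above also differed between Tom- members and other stromal cells. Robo2, a guidance receptor of axons, was 70.7 against 7.61 CPM, and Thy1, a surface antigen of fibroblasts, 62.5 against 13.3 CPM. The parts of the receptor of the neuropeptide CGRP were both higher, Ramp1 at 77.9 against 13.8 CPM and Calcrl at 359.9 against 103 CPM. The progesterone receptor gene Pgr was 35.9 against 8.86 CPM in members, and within them 9.27 CPM with and 39.0 CPM without Cdkn2a. The quinone reductase gene Nqo1 was 71.8 against 16.1 CPM, whereas the metallothionein gene Mt1 was 76.7 against 599.8 CPM and Apoe, the gene of a lipid carrier, 320.3 against 1344 CPM. Insulin-like growth factor genes were mixed, with 2 of 12 higher and 5 lower, and Igfbp5 at 76.5 against 978 CPM. Igf1 was 34.6 against 82.4 CPM, but within the members 102 CPM with and 26.6 CPM without Cdkn2a. No gene of a proliferation list of which 3 were measured passed a factor of 2 in members against other stromal cells.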
